A study of Homo sapiens with 5 samples.

Results

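Kinesins are motor proteins that walk along or take apart microtubules. The genes described here are the protein-coding genes whose GENCODE 29 symbol is KIF or KIFC followed by a digit, matched by Ensembl identifier. The rule found 43 genes, and 42 of them were among the 30631 genes of the expression files. Of these, 41 encode kinesin motors. The other, KIF1BP, encodes a protein that binds several kinesins and holds them off microtubules. It is no motor and was counted apart. The motor not analysed here was KIF2B.

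The cells were COV434, labelled as a human ovarian granulosa tumour line. Of the libraries, 3 came from cells given 3-nitropropanoic acid (3-NP), an irreversible inhibitor of succinate dehydrogenase, and 2 from control cells. No dose, time or culture condition was given for either group, and no allele or other agent was named. Every title says COV434, whereas the fields for the line and its source carry a number that goes up by 1 with each sample. The samples are taken as COV434, as titled. Replicates may be cultures or repeat preparations, which the labels leave unsaid, and the p-values below rest on the scatter among the libraries alone.

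Levels are in FPKM, fragments corrected for exon length and sequencing depth. Depth worked out from the values was 18653000 to 18883000 reads in the 3-NP libraries and 17838000 to 18753000 in the controls. On a gene of 2 kb, 3 reads equal 0.0794 to 0.0841 FPKM, the upper limit behind any value of 0, with counting error alone considered. Fold changes are fitted differences of log2(FPKM + 1), 3-NP minus control, with limma's standard error (SE) and adjusted p, and they understate the change of low genes. A gene was called at an adjusted p under 0.05. Of 11858 genes tested 40.8% were called, 15.5% higher and 25.2% lower in 3-NP cells. Lower genes made up 61.89% of calls, a share that depended on the scaling. It was 52.04% with quantile normalization, 52.54% with median-of-ratios scaling, 51.8% with a trend with gene length removed and 68.93% with equal FPKM totals. Granulosa markers were only partly present. NR5A1 had 11.4 to 14.1 FPKM in 3-NP cells and 21.9 to 24.9 in control cells, and FOXL2 had 2.33 to 2.71 in 3-NP cells and 5.5 to 6.9 in control cells. Other granulosa markers ran the other way, GATA4 at 2.46 to 2.81 FPKM in 3-NP cells and 1.5 to 2.12 in control cells, and STAR at 4.72 to 4.91 in 3-NP cells and 3.6 to 4.22 in control cells. FSHR and CYP19A1 were at or near 0. Of 2 leukocyte markers LYZ was at 0 and PTPRC at most 0.1 FPKM. Markers of other cell types differed between the groups. The 5 fibroblast markers summed to 160.23 to 320.021 FPKM in 3-NP cells and 866.823 to 868.528 in control cells, mostly COL1A1 and COL1A2. PDGFRA was lower too, at 0.267 to 0.408 FPKM in 3-NP cells and 0.795 to 1.2 in control cells. DCN ran the other way, at 1.21 to 1.26 FPKM in 3-NP cells and 0.711 to 0.868 in control cells, and LUM overlapped. The 4 epithelial markers summed to 46.201 to 105.377 FPKM in 3-NP cells and 400.038 to 482.598 in control cells, a gap that lay in KRT18 (33.7 to 58.5 FPKM in 3-NP cells and 382 to 460.4 in control cells). KRT8 overlapped, at 12.4, 35.1 and 46.4 FPKM in 3-NP cells and 17.7 and 21.9 in control cells, EPCAM was at most 0.443 and CDH1 at most 0.209. The 4 endothelial markers summed to 1.524 to 2.574 FPKM in 3-NP cells and 0.322 to 0.395 in control cells, mostly KDR, with CDH5 at most 0.0178. In the fibroblast and epithelial sums 3-NP replicate 1 was the lowest library. The part of these shifts in the kinesin results was not tested.

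Kinesins share a motor domain that turns ATP hydrolysis into force on microtubules. One set builds and splits the mitotic spindle and is made mainly by dividing cells, rising towards mitosis. Another carries vesicles, organelles and RNA along interphase microtubules, with light chains or adaptors that choose the cargo. A further set works in cilia or in Hedgehog signalling.

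The spindle set was lower in 3-NP cells, while calls in the transport set went both ways at shares near those of all genes. Among the 26 motor genes tested, 11 fell and 3 rose. With KIF1BP this made 12 of 27 lower and 3 of 27 higher, beside 25.2% and 15.5% of all genes. By role, 8 of 10 tested spindle and cytokinesis motors fell and none rose, 3 of 14 cargo motors fell and 2 rose, and 1 of 2 motors of cilium, Hedgehog and other roles rose. The median fitted change was −1.28 in the tested spindle motors and 0.04 in the tested cargo motors, beside −0.111 over all genes tested. Over all 14 spindle motors in the files, with no filter, it was −1.2. Another 15 members lay under the low-value filter, which asked for 1 FPKM in 2 or more libraries. Of the tested motors 5 met it within 1 group only, KIF4A, KIF18A and KIF18B in control cells and KIF21A and KIF21B in 3-NP cells, so their counts and medians follow in part from the filter.

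Summed over the 14 spindle and cytokinesis motors, levels were 10.9, 21.6 and 18.8 FPKM in 3-NP replicates 1, 2 and 3 and 49.1 and 49.4 FPKM in the controls. These motors made up 5.86%, 10.5% and 11.2% of all kinesin motor FPKM in 3-NP cells and 20.2% and 21.9% in control cells. The cargo motors summed to 169.7, 178 and 143 FPKM in 3-NP cells and to 189 and 171 FPKM in control cells, so the transport sums overlapped between the groups. In bulk RNA, fewer dividing cells and less of a transcript per cell cannot be told apart.

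KIF20A and KIF23, motors of the central spindle and of cytokinesis, had the largest fitted falls among the tested members. KIF23 (chromosome 15, positions 69414246 to 69448427, GRCh38) encodes the motor of centralspindlin, which bundles midzone microtubules with RACGAP1. It had 0.955, 1.68 and 1.39 FPKM in 3-NP cells, against 6.83 and 6.29 FPKM in control cells. That is 4.89 times lower in the mean (log2 fold change −1.7 ± 0.17 SE, adjusted p = 0.000721). KIF20A (chromosome 5, positions 138178719 to 138187715) carries the chromosomal passenger complex to the midzone. It had 0.482, 1.35 and 1.4 FPKM in 3-NP cells, against 5.35 and 6.2 FPKM in control cells, with a control mean 5.36 times as high (log2 fold change −1.74 ± 0.23 SE, adjusted p = 0.00181). KIF4A (chromosome X, positions 70290090 to 70420832), a chromatin-bound kinesin that sets midzone length with PRC1, had 0.315, 0.863 and 1.05 FPKM in 3-NP cells, against 3.52 and 2.98 FPKM in control cells (log2 fold change −1.31 ± 0.21 SE, adjusted p = 0.00357). In each of these 3 genes every 3-NP library lay below both controls, replicate 1 was the lowest of all, and every alternative tried gave the call. KIF4B, an intronless near-copy of KIF4A, had at most 0.0243 FPKM in any library, and reads could be split between the pair. KIF20A shares exon bases with CDC23 and BRD8 on the opposite strand, over 1.72% and 3.34% of its exon length, and KIF22 shares 13.01% of its exon bases with an antisense gene, KIFC1 12.68% with a ribosomal protein pseudogene and KIF23 3.51% with an antisense gene. KIF4A shares 1.7% of its exon bases with PDZD11 on the opposite strand, a gene at 35.508 to 49.826 FPKM. The kit keeps strand, but the counter's strand setting was not stated, so reads of such pairs may be mixed.

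Motors that set up the spindle fell as well. KIF11 (Eg5), which pushes the poles apart, had 0.578, 1.42 and 1.76 FPKM in 3-NP cells and 4.94 and 3.66 FPKM in control cells (log2 fold change −1.26 ± 0.25 SE, adjusted p = 0.00765). KIFC1 (HSET), a minus-end motor that gathers the poles, had 0.776, 2.84 and 2.95 FPKM in 3-NP cells and 5.79 and 7.68 FPKM in control cells (log2 fold change −1.36 ± 0.35 SE, adjusted p = 0.019). Again no 3-NP library reached a control. KIF22 (Kid), which pushes chromosome arms outward, had 0.786, 1.99 and 2.33 FPKM in 3-NP cells and 4.53 and 6.44 FPKM in control cells (log2 fold change −1.3, adjusted p = 0.0101). KIF2C (MCAK), which takes microtubules apart at centromeres, had 0.421, 1.91 and 2.26 FPKM in 3-NP cells and 4.78 and 4.67 FPKM in control cells (log2 fold change −1.27, adjusted p = 0.0214). KIF22 and KIF2C had the same order, all 3-NP libraries below both controls. Leaving out control replicate 1 gave adjusted p of 0.0706 for KIF11, 0.0606 for KIFC1 and 0.102 for KIF2C. Leaving out control replicate 2 gave 0.108 for KIFC1, 0.0779 for KIF22 and 0.0887 for KIF2C, in fits that assume the lone control to vary like the other libraries. KIFC1, KIF22 and KIF2C also missed the threshold with no low-value filter (adjusted p = 0.0912, 0.0581 and 0.0986).

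The kinesin-8 motors, which shorten microtubule ends, gave a less firm result. KIF18B had 0, 0.726 and 0.73 FPKM in 3-NP cells and 1.82 and 2.54 FPKM in control cells (log2 fold change −1.13 ± 0.27 SE, adjusted p = 0.0136). With limma-voom on the reads worked out from FPKM its adjusted p was 0.0538, and it was 0.0686 with a pseudocount of 0.1 and 0.0717 with no low-value filter. With either control left out it did not reach the filter. The value of 0 in 3-NP replicate 1 stood beside 63 and 64 reads in the other 3-NP libraries. KIF18A, which aligns chromosomes, had 0.465, 1.55 and 0.774 FPKM in 3-NP cells and 1.8 and 1.72 FPKM in control cells (log2 fold change −0.56, 95% confidence interval −1.11 to 0.00, adjusted p = 0.097). KIF18A was called only without 3-NP replicate 2, its highest 3-NP library (adjusted p = 0.0143). KIF2A, a microtubule depolymerase also used outside mitosis, was the tested spindle-group gene with the smallest fitted change. It had 5.55, 5.74 and 3.25 FPKM in 3-NP cells and 6.59 and 4.81 FPKM in control cells, which overlap (log2 fold change −0.22, 95% confidence interval −0.77 to 0.34, adjusted p = 0.495). Of its exon bases 8.97% are shared with IPO11 on the same strand.

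**Figure D1:**
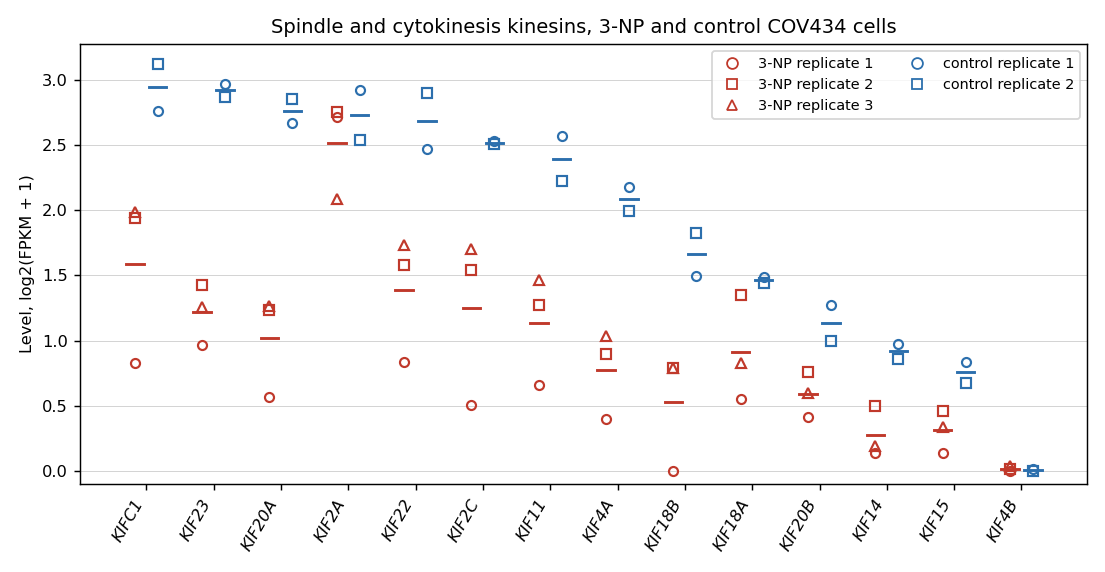
Levels of the 14 spindle and cytokinesis kinesins as log2(FPKM + 1) on the y axis, by gene on the x axis, with 3-NP libraries in red left of control libraries in blue, marker shape giving the replicate number and bars the group mean. In 12 of the 14 genes every 3-NP library lies below both controls, the exceptions being KIF2A and KIF4B.

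Spindle motors under the low-value filter could be examined as reads. KIF14, a partner of citron kinase in cytokinesis, had 14, 56 and 19 reads in 3-NP cells and 132 and 106 reads in control cells. KIF15, which backs up KIF11, had 10, 37 and 26 reads in 3-NP cells and 78 and 56 reads in control cells. KIF20B, a midbody kinesin, had 43, 89 and 66 reads in 3-NP cells and 181 and 121 reads in control cells. All 3-NP libraries were below both controls for each gene. A limma-voom fit of genes with 10 reads or more in 2 or more libraries was chosen after seeing the data, and in it all of them fell (adjusted p = 0.00703 for KIF14, 0.0275 for KIF15 and 0.0189 for KIF20B). With no low-value filter on log2(FPKM + 1), KIF14 was called (adjusted p = 0.0481), whereas KIF15 (0.0939) and KIF20B (0.109) were not. In the limma-voom fit 10 of 13 spindle motors fell and none rose. Of all 15495 genes in it 38.2% were called, 15.3% higher and 22.9% lower. Over the 14 spindle motors of the files, 12 had all 3-NP libraries below both controls, and none had all of them above. Among all genes tested 64.2% did not overlap, 38.4% with 3-NP lower and 25.8% with 3-NP higher. Those shares leave out genes under the filter, such as KIF14, KIF15, KIF20B and KIF4B.

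The 3-NP libraries differed among themselves in this set. Over the 13 spindle motors without KIF4B, the median level as a share of the control mean was 13.4%, 40.4% and 40.9% in 3-NP replicates 1, 2 and 3. Replicate 1 was the lowest 3-NP library in 12 of these 13 genes, the exception being KIF2A. It was the lowest in 39.6% of all genes tested and in 35.7% of those called lower. Both shares leave out genes under the filter, such as KIF14, KIF15 and KIF20B. All 8 called spindle motors were still called without 3-NP replicate 1, at adjusted p of 0.000799 to 0.00629, and the median fitted change of the tested spindle motors was then −1.0.

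**Figure D2:**
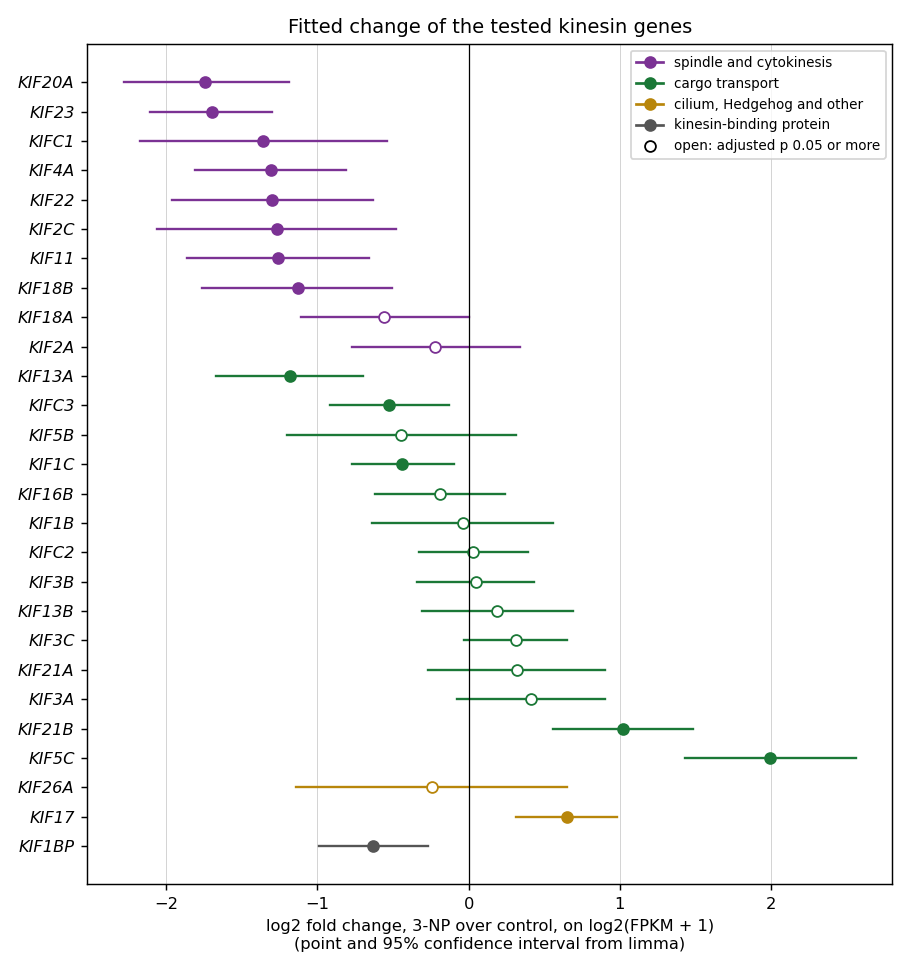
Fitted log2 fold change, 3-NP over control on log2(FPKM + 1), on the x axis with limma's 95% confidence interval for the 27 tested genes, one per row, coloured by role, filled where the adjusted p is under 0.05. Spindle genes run from −1.74 to −0.22 and cargo genes from −1.18 to 1.99.

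Cell cycle genes of late G2 and mitosis often carry a hexamer, which reads TTTGAA in most of them and TTCGAA in others, known as the cell cycle genes homology region (CHR), close to CCAAT boxes. The windows of 300 bases (250 before the annotated start to 50 after) came from RefSeq, build GRCh38.p14, in which 34 of the 42 genes had an entry. Both strands were searched, and TTCGAA reads the same on both. A CHR hexamer stood in a window of 11 of the 14 spindle motors, against 1 of 11 cargo motors, 1 of 8 motors of cilium, Hedgehog and other roles and 16.4% of all 35116 windows. CCAAT stood in 11 of the 14, against 4 of 11 cargo motors and 34.6% of all windows. Both stood in 10 of the 14 spindle motors and in 6.4% of all windows. Counted per gene, as for the motors, with any of a gene's windows sufficing, the shares over all 27305 genes were 19.5% for the hexamer, 39.7% for CCAAT and 9.0% for both. Of the remaining spindle motors, KIF15 held the hexamer with no CCAAT, KIF20A held CCAAT with no hexamer, and KIF2A and KIF2C held neither. KIF2C and KIF20A fell and KIF2A was not called, so the letters and the calls did not match gene for gene. The other motors with a hexamer were KIF24, under cilium, Hedgehog and other roles, and the cargo motor KIF5B. A match describes letters and shows no binding.

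The 100 bases before the start are printed for 5 of the 6 spindle motors with the hexamer upstream (all but KIF18A), for KIF20A, which lacks it, and for the cargo motor KIF5C, which rose. They run 5′ to 3′ on the plus strand of chr15:69414249-69414348, chrX:70290004-70290103, chr10:92593030-92593129, chr3:44761694-44761793, chr16:29790651-29790750, chr5:138179012-138179111 and chr2:148875127-148875226, in the order listed. Capitals mark CHR hexamers, CCAAT boxes and, in KIF5C, the palindrome TGACGTCA. A motif that lies on the minus strand appears as its reverse complement.
KIF23: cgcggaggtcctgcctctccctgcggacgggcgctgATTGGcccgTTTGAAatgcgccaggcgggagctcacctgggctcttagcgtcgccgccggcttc
KIF4A: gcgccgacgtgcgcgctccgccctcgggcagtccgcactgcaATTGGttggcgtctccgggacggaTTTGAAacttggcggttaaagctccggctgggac
KIF11: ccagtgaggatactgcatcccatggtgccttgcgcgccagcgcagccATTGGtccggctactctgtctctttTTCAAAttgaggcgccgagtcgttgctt
KIF15: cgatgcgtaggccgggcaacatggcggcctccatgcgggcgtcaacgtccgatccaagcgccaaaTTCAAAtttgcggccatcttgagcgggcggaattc
KIF22: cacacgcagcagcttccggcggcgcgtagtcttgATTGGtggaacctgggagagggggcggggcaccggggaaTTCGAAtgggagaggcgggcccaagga
KIF20A: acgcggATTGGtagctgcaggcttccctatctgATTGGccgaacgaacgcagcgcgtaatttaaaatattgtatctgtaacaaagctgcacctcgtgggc
KIF5C: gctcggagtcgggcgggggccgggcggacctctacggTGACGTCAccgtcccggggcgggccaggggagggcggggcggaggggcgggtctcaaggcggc

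In these stretches the hexamer begins 55 bases before the start in KIF23, 34 in KIF4A, 28 in KIF11, 35 in KIF15 and 27 in KIF22. In KIF18A it begins 10 bases before the start, and in KIF14, KIF18B, KIF20B, KIF4B and KIFC1 it lies after the start. TGACGTCA, the letters of the cyclic AMP response element, was searched for after the KIF5C stretch had been seen. It stood in a window of KIF5C, KIF1A and KIF15 among the kinesin genes, and in 1.85% of all windows. Counted per gene, with any window sufficing, the share over all genes was 2.25%.

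**Figure D3:**
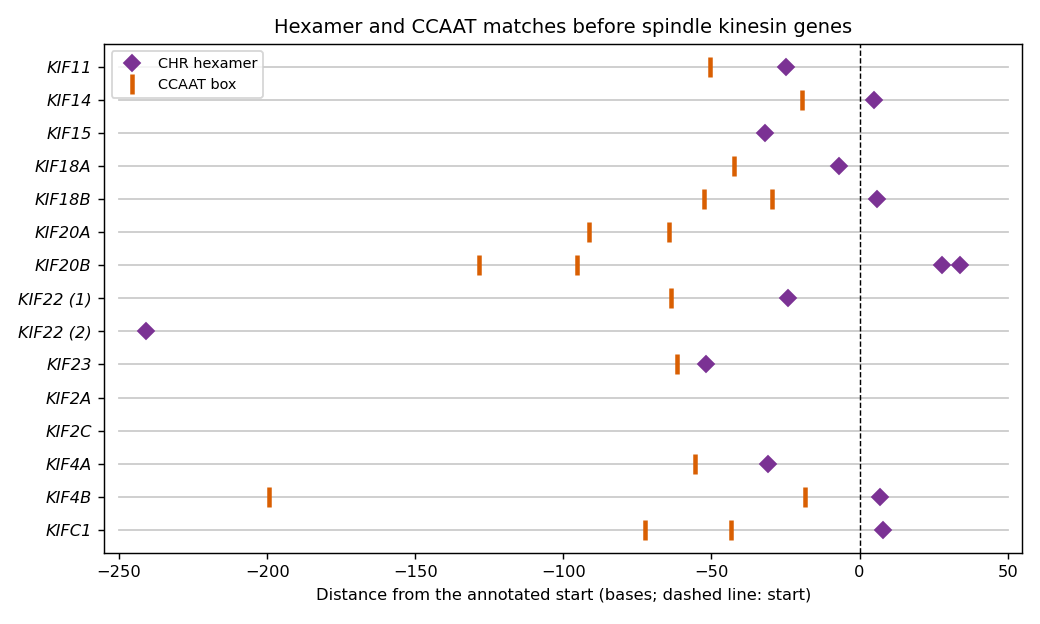
Position of CHR hexamers (purple diamonds) and CCAAT boxes (orange bars) relative to the annotated start, in bases on the x axis, for the 15 windows of the 14 spindle and cytokinesis kinesins, one per row. Hexamers stand between 55 bases before and 31 bases after the start, apart from the second window of KIF22, and CCAAT boxes lie mostly within 100 bases before it.

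Proteins that work with the spindle motors were read from a list of 24 genes. Of 22 tested 17 fell and none rose, beside 25.2% lower and 15.5% higher of all genes tested, and the median fitted change was −1.21. This count and median follow in part from the filter, since BUB1B, NDC80, SPC25 and GTSE1 met it within the control group only. The list was also chosen with earlier results of these data known, so the count is no independent support. RACGAP1, the partner of KIF23 in centralspindlin, had 3.62, 5.39 and 4.91 FPKM in 3-NP cells and 12.0 and 11.6 FPKM in control cells (log2 fold change −1.2 ± 0.17 SE, adjusted p = 0.00233). SPC25, a kinetochore subunit, had 0.288, 0.349 and 0.49 FPKM in 3-NP cells and 2.32 and 3.47 FPKM in control cells (log2 fold change −1.49, adjusted p = 0.00114). NUMA1, which anchors dynein at the poles, averaged 2.94 ± 0.344 FPKM in 3-NP cells and 7.96 ± 0.437 FPKM in control cells (SD, n = 3 and 2, adjusted p = 0.0012 by limma). GTSE1, a microtubule tip protein that restrains KIF2C, averaged 0.85 ± 0.394 FPKM in 3-NP cells and 4.37 ± 0.337 FPKM in control cells (SD, n = 3 and 2, adjusted p = 0.00171 by limma). CENPE, the kinetochore kinesin whose symbol falls outside the rule, lay under the filter at 0.342, 0.704 and 0.371 FPKM in 3-NP cells and 1.01 and 0.79 FPKM in control cells. CENPE fell with limma-voom on reads (adjusted p = 0.043) and was not called with no low-value filter on log2(FPKM + 1) (adjusted p = 0.208). In this list 3-NP replicate 1 was the lowest 3-NP library in 21 of 24 genes.

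Among cargo motors the heavy chains of kinesin-1, the conventional kinesin that carries mitochondria and vesicles, changed in makeup. KIF5C (chromosome 2, positions 148875250 to 149026759), a heavy chain known mainly from neurons, had 10.5, 9.14 and 5.71 FPKM in 3-NP cells, against 1.55 and 1.1 FPKM in control cells. All 3-NP libraries lay above both controls. The mean was 6.37 times higher (log2 fold change 1.99 ± 0.24 SE, adjusted p = 0.00125), the largest fitted rise among tested members on the log2(FPKM + 1) scale, though KIF21B had the larger ratio of means. KIF5C was called under every alternative tried. KIF5B, the heavy chain of most tissues, had 28.4, 40.9 and 17.9 FPKM in 3-NP cells and 45.1 and 31.8 FPKM in control cells, which overlap (log2 fold change −0.45, 95% confidence interval −1.2 to 0.31, adjusted p = 0.303). KIF5A, the other neuronal heavy chain, lay under the filter with 52, 43 and 66 reads in 3-NP cells and 15 and 19 reads in control cells, and rose with limma-voom on reads (adjusted p = 0.0158), but was not called with no low-value filter on log2(FPKM + 1) (adjusted p = 0.0706). KIF5C made up 26.6%, 18.1% and 23.6% of kinesin-1 heavy chain FPKM in 3-NP cells and 3.31% and 3.31% in control cells. The sum over all heavy chains was 39.3, 50.4 and 24.2 FPKM in 3-NP cells and 46.8 and 33.1 FPKM in control cells, which overlap, so the share of KIF5C was higher in every 3-NP library while the total overlapped. The share was not tested.

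**Figure D4:**
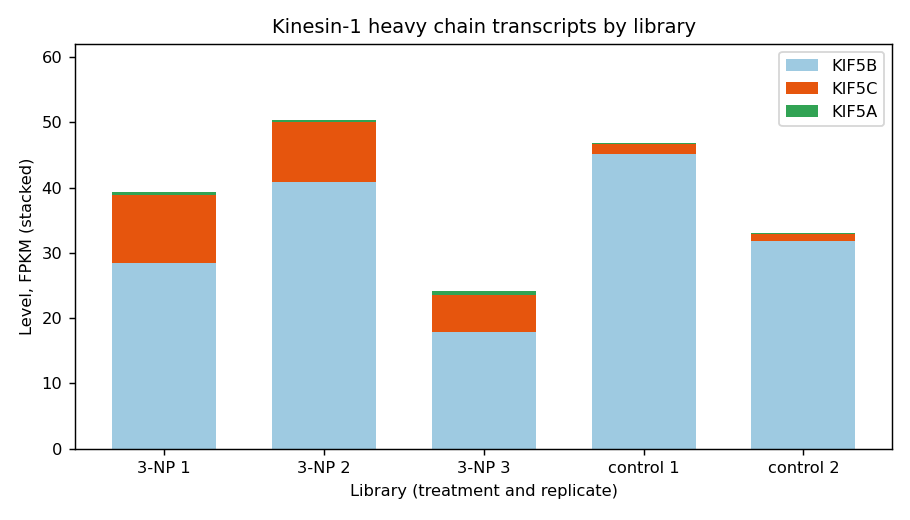
Stacked bars of KIF5B, KIF5C and KIF5A levels in FPKM on the y axis, one bar for each of the 3-NP and control libraries on the x axis. The KIF5C block is 5.71 to 10.5 FPKM in the 3-NP libraries and 1.1 to 1.55 FPKM in the controls.

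The cargo adaptors of kinesin-1 and its relatives were read from a list of 20 genes, in which 3 of 16 tested rose and 3 fell, beside 15.5% higher and 25.2% lower of all genes tested, so the list as a whole lay near the background. The genes that rose encode the scaffolds JIP1, JIP3 and JIP4, which link kinesin-1 and dynein to vesicles. MAPK8IP3 (JIP3) averaged 10.9 ± 1.71 FPKM in 3-NP cells and 5.91 ± 0.134 FPKM in control cells (SD, n = 3 and 2, adjusted p = 0.00792 by limma). MAPK8IP1 (JIP1) averaged 5.94 ± 0.403 FPKM in 3-NP cells and 3.28 ± 0.436 FPKM in control cells (SD, n = 3 and 2, adjusted p = 0.00803 by limma). SPAG9 (JIP4) had 28.3, 30.5 and 18.2 FPKM in 3-NP cells and 13.3 and 9.85 FPKM in control cells (log2 fold change 1.06, adjusted p = 0.0118). The groups did not overlap in these genes. Leaving out control replicate 1 gave adjusted p of 0.0635 for MAPK8IP3 and 0.0857 for MAPK8IP1, leaving out control replicate 2 gave 0.0525 for MAPK8IP3 and 0.0885 for SPAG9, and SPAG9 had 0.0579 with no low-value filter. The falls were in KIF1BP and, named after their values were seen, in the light chain KLC4 (log2 fold change −0.65, adjusted p = 0.0179) and the mitochondrial adaptor TRAK2 (log2 fold change −0.83, adjusted p = 0.0454). With no low-value filter neither KLC4 (adjusted p = 0.0636) nor TRAK2 (0.149) was called. TRAK1, on the same list, went the other way and was not called (log2 fold change 0.42, adjusted p = 0.068). KIF1BP had 8.09, 10.6 and 9.63 FPKM in 3-NP cells and 15.7 and 14.6 FPKM in control cells (log2 fold change −0.63, adjusted p = 0.015). Its adjusted p was 0.112 when control replicate 1 was left out and 0.071 for replicate 2.

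KIF13A and KIF13B are related motors of endosomal and membrane traffic. KIF13A, which carries recycling endosomes, had 4.77, 4.92 and 3.1 FPKM in 3-NP cells and 12.3 and 9.46 FPKM in control cells (log2 fold change −1.18 ± 0.21 SE, adjusted p = 0.00459), and was called under every alternative tried. KIF13B had 7.52, 4.76 and 4.55 FPKM in 3-NP cells and 5.05 and 4.34 FPKM in control cells (log2 fold change 0.19, 95% confidence interval −0.31 to 0.69, adjusted p = 0.501). Thus KIF13A levels separated by group and KIF13B levels overlapped. KIF13A made up 38.8%, 50.8% and 40.5% of the pair in 3-NP cells and 70.9% and 68.5% in control cells.

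The KIF21 motors differed in how firmly they were called. KIF21B, a kinesin that slows microtubule growth and is best known from neurons and lymphocytes, had 0.933, 1.48 and 1.93 FPKM in 3-NP cells and 0.171 and 0.208 FPKM in control cells. The mean was 7.64 times higher (log2 fold change 1.02 ± 0.20 SE on the scale that understates low genes, adjusted p = 0.00654). The adjusted p was 0.0632 when control replicate 1 was left out and 0.0529 for replicate 2, and with 3-NP replicate 2 or 3 left out it did not reach the filter. Its relative KIF21A had 1.6, 2.14 and 0.772 FPKM in 3-NP cells and 1.15 and 0.776 FPKM in control cells, which overlap (log2 fold change 0.32, adjusted p = 0.34), and was called higher only without 3-NP replicate 3 (adjusted p = 0.0432). KIF1A, the carrier of synaptic vesicle precursors, had 0.647, 0.291 and 0.241 FPKM in 3-NP cells, against 0 and 0.00454 FPKM in control cells. It lay under the filter, and limma-voom on reads called it higher (adjusted p = 0.00353). It entered that fit through the 3-NP libraries alone, where it was high, and its reads did not come out whole and were rounded. With no filter and log2(FPKM + 1) it was not called (adjusted p = 0.0917). The reads of KIF23 and KIF25 also did not come out whole and were rounded.

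Of the most abundant kinesins some fell slightly and others overlapped. KIF1C, a carrier of integrin and dense-core vesicles and the motor with the highest mean in both groups, had 35.5, 37.9 and 41.5 FPKM in 3-NP cells and 49.6 and 54.7 FPKM in control cells (log2 fold change −0.44 ± 0.14 SE, adjusted p = 0.0433). KIFC3, a minus-end motor at cell junctions, had 6.58, 7.46 and 8.82 FPKM in 3-NP cells and 10.2 and 12.6 FPKM in control cells (log2 fold change −0.53 ± 0.17 SE, adjusted p = 0.0404). Both groups separate in these genes, yet the calls were not firm. KIF1C lost the call under 10 of 15 alternatives and KIFC3 under 8 of 15, with adjusted p up to 0.241 and 0.247 without control replicate 2. For KIF1C and KIFC3 in turn, it was 0.137 and 0.0848 without control replicate 1, 0.0582 and 0.0669 without 3-NP replicate 1, and 0.107 and 0.0886 without 3-NP replicate 2, while KIF1C had 0.0531 without 3-NP replicate 3. With the gene length trend removed it was 0.223 and 0.224, and with median-of-ratios scaling 0.101 and 0.0738.

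The kinesin-2 motors, which carry material out along cilia and vesicles elsewhere, were not called apart from KIF17. KIF3B had 24.9, 25.9 and 20.3 FPKM in 3-NP cells and 25.0 and 20.7 FPKM in control cells (log2 fold change 0.05, 95% confidence interval −0.34 to 0.43, adjusted p = 0.833), and equal FPKM totals turned its sign. KIF3C had 29.1, 24.2 and 24.4 FPKM in 3-NP cells and 21.3 and 20.1 FPKM in control cells, which did not overlap but were not called (log2 fold change 0.31, adjusted p = 0.128, and 0.0339 with the length trend removed). KIF3A, the partner of KIF3B, had 4.04, 4.66 and 2.86 FPKM in 3-NP cells and 3.12 and 2.14 FPKM in control cells (log2 fold change 0.41, adjusted p = 0.151). KIF3A was called higher after quantile normalization (adjusted p = 0.0457), with the length trend removed (0.0388) and without 3-NP replicate 3 (0.0455). The adaptor subunit KIFAP3 averaged 10.2 ± 1.21 FPKM in 3-NP cells and 9.34 ± 0.725 FPKM in control cells (SD, n = 3 and 2, adjusted p = 0.585 by limma). KIF17, a kinesin-2 of dendrites and cilia, had 2.82, 2.33 and 2.4 FPKM in 3-NP cells and 1.31 and 1.17 FPKM in control cells, with all 3-NP libraries above both controls. Its log2 fold change was 0.65 ± 0.14 SE (adjusted p = 0.0104), which became 0.074 with control replicate 1 left out and 0.0967 with replicate 2 left out.

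**Figure D5:**
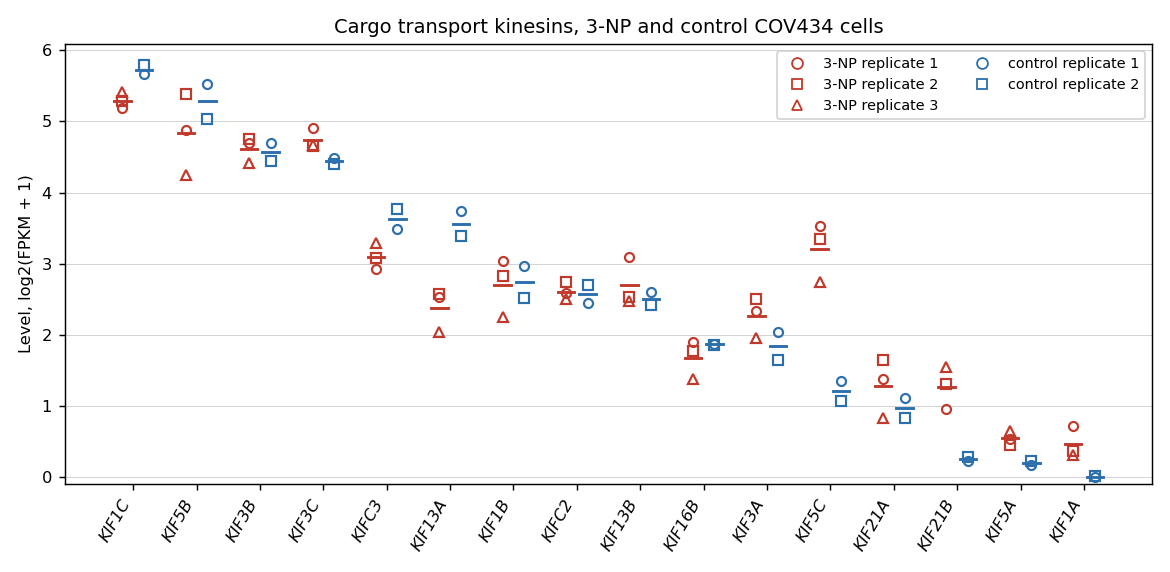
Levels of the 16 cargo transport kinesins as log2(FPKM + 1) on the y axis, by gene on the x axis in order of control mean, with 3-NP libraries in red left of control libraries in blue, marker shape giving the replicate and bars the group mean. KIF1A, KIF3C, KIF5A, KIF5C and KIF21B stand above the controls in every 3-NP library, and KIF1C, KIF13A and KIFC3 below.

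The other tested cargo motors overlapped between groups and were not called. KIF1B, a carrier of mitochondria and synaptic vesicle precursors, had 7.18, 6.1 and 3.75 FPKM in 3-NP cells and 6.79 and 4.74 FPKM in control cells (log2 fold change −0.04, 95% confidence interval −0.64 to 0.56). KIF16B, a motor of early endosomes, had a log2 fold change of −0.19 (−0.62 to 0.24), and the minus-end motor KIFC2 one of 0.03 (−0.33 to 0.39). A miss of the threshold does not show equal levels, and the sign turned with equal FPKM totals for KIFC2 and with quantile, median-of-ratios and length-trend scaling for KIF1B. Of the exon bases of KIFC2, 17.79% are shared with FOXH1 on the opposite strand.

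Of the 11 motors of cilium, Hedgehog and other roles, 9 lay under the filter. KIF24, which holds back cilium growth at the centriole in cycling cells, had 33, 24 and 26 reads in 3-NP cells and 109 and 106 reads in control cells. All 3-NP libraries were below both controls, and KIF24 fell with limma-voom on reads (adjusted p = 0.00167), with a ratio of means of 0.25. KIF7, a regulator of Hedgehog signalling at the cilium tip, had 22, 36 and 28 reads in 3-NP cells and 45 and 64 reads in control cells (adjusted p = 0.0644 with limma-voom). It shares 11.78% of its exon bases with TICRR on the opposite strand. KIF27, its relative, and KIF9, of motile cilia, were not called in that fit (adjusted p = 0.304 and 0.453). KIF26A, a kinesin thought to lack ATPase activity, had 0.196, 1.48 and 2.28 FPKM in 3-NP cells and 1.48 and 1.58 FPKM in control cells, so that 3-NP replicate 1 lay apart from the other libraries (log2 fold change −0.24, 95% confidence interval −1.14 to 0.65). KIF6, KIF12, KIF19, KIF25, KIF26B and KIF4B did not reach 10 reads in 2 libraries, and differences in them were not detectable at this depth.

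The other lists held calls in both directions, and their shares are read beside 25.2% lower and 15.5% higher of all genes tested. Of 23 dynein and dynactin genes, the minus-end motor and its activator, 10 fell and 4 rose. ACTR1A, the dynactin filament subunit, averaged 29.1 ± 1.14 FPKM in 3-NP cells and 53.4 ± 4.12 FPKM in control cells (SD, n = 3 and 2, adjusted p = 0.00317 by limma). The dynein intermediate chain DYNC1I2 (−0.93) fell as well, and the dynein regulator NDE1 (1.02) rose, as log2 fold changes (adjusted p = 0.00425 and 0.00248). Of 13 tested tubulins, the track itself, 5 fell and 3 rose, 1 of which, TUBD1, met the filter within 3-NP cells only. TUBB4B had 109, 81.0 and 97.0 FPKM in 3-NP cells and 194 and 232 FPKM in control cells (adjusted p = 0.00302), TUBA1B fell with a log2 fold change of −1.15 (adjusted p = 0.00313), and TUBB2B rose with a log2 fold change of 1.15 (adjusted p = 0.00231). Tubulin genes resemble each other and their pseudogenes, so reads may be shared. Of 23 tested genes of intraflagellar transport and Hedgehog signalling, 3 rose, led by IFT20 (1.01, adjusted p = 0.00288), and 5 fell, among them GLI2 (−0.77, adjusted p = 0.0071) and IFT74 (−0.68, adjusted p = 0.00818), shares near those of all genes. Leaving out control replicate 1 gave adjusted p of 0.0648 for GLI2 and 0.0959 for IFT74, and leaving out control replicate 2 gave 0.0629 for GLI2 and 0.0546 for IFT74.

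By mean level, KIF1C led the motors in both groups, at 38.3 ± 3.01 FPKM in 3-NP cells and 52.1 ± 3.58 FPKM in control cells, followed by KIF5B at 29.1 ± 11.5 and 38.5 ± 9.4 FPKM (SD, n = 3 and 2). KIF3C and KIF3B came next, at 25.9 ± 2.78 and 23.7 ± 2.98 FPKM in 3-NP cells and 20.7 ± 0.837 and 22.8 ± 3.02 FPKM in control cells. This order did not hold in every 3-NP library. KIF5B lay above KIF1C in replicate 2 (40.9 against 37.9 FPKM). KIF3C lay above KIF5B in replicate 1 (29.1 against 28.4 FPKM) and replicate 3 (24.4 against 17.9 FPKM). KIF3C and KIF3B were not tested against each other. KIF3B lay above KIF3C in both controls, and in 3-NP cells their order varied with the replicate. KIF5C ranked 5 in 3-NP cells and 23 in control cells, counted from the highest mean FPKM of 41 motors. KIF23 ranked 20 in 3-NP cells and 8 in control cells, and KIF20A 23 and 9.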

How the data were processed

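Messenger RNA was sequenced from 3 libraries of 3-NP cells and 2 of control cells, grouped by sample title, with a strand-keeping library kit, per the labels' protocols. Tools listed in the submitters' processing notes are HISAT2 2.1, Trimmomatic 0.39 and bcl2fastq 2.17, with the build GRCh38. For the read counter, the annotation and the counter's strand setting, nothing is given in the sources used here. The deposited files hold 1 FPKM value per gene and library, a unit read from the values, since the file headers do not name it. FPKM times the exon-union length of GENCODE 29 came within 0.05 of whole reads for 93.1% to 93.3% of values above 0. The count test that would have applied to counts was therefore not used. Log2(FPKM + 1) values were fitted in limma 3.58.1 under R 4.3.3, trend option on, keeping genes that reached 1 FPKM in 2 or more libraries. Group was the only term and 3 residual degrees of freedom remained. Benjamini-Hochberg adjustment ran over all genes tested. The fit was also run on simulated data with 1 spread setting for all genes. Changes were set only in genes at 2 FPKM or more, so that run does not bear on lower genes. Members and lists were chosen with earlier results of these data known. All members were named, as were CENPE, RACGAP1, KIFAP3 and up to 3 called genes with the smallest p per partner list. Alternatives changed the scaling, filter, pseudocount, test, block and libraries.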

Additional observations from a re-analysis of the deposited data

How the results depend on the processing

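Of the 15 called genes 5 (KIF23, KIF20A, KIF4A, KIF13A and KIF5C) were called under all 15 alternatives, and none of the 15 changed direction. With 1 library left out, 1443 to 2147 genes were higher and 2617 to 3107 lower without a 3-NP library, but 752 higher and 1062 lower without control replicate 1, and 909 and 1179 without control replicate 2. Kinesin genes then numbered 1 to 4 higher and 5 to 11 lower, the fewest without either control. With the gene length trend removed 5 kinesin genes were higher, and with limma-voom at 10 reads or more, which tests 36 members, also 5. The median of the tested spindle motors was −1.82 with a pseudocount of 0.1, −1.93 with limma-voom and −1.91 with limma-voom at 10 reads or more, scales that shrink low genes less. That of cilium, Hedgehog and other motors was 0.65 with the stricter filter, where 1 gene remained, and −0.54 with limma-voom at 10 reads or more, where 6 were tested. With the replicate number as a block, 1737 genes were higher and 2610 lower, and among kinesin genes 3 and 11, KIF1C being lost (adjusted p = 0.0634). The numbers join only 2 pairs, whose deviations from the group means correlated across genes at 0.157 and −0.351, and the labels do not say that they mark a shared culture. With 5 libraries, genes at a few reads could not be compared.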
